A study of Homo sapiens with 6 samples.

Results

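The genes described here are 10 genes that estrogen is known to raise through its receptor in luminal breast cancer cells: PGR, GREB1, TFF1, RET, CXCL12, RAB31, MYB, CA12, PDZK1 and RARA. They were taken by name from a count table of 20333 gene intervals. All 10 had a row with at least 10 counts in a library, and all 10 were among the 19902 intervals that passed the filter on low counts. The readout was PRO-seq (precision nuclear run-on sequencing): RNA polymerases already engaged on a gene extend their transcripts in permeabilised cells, so that reads report polymerase activity rather than stored RNA. T47D, a luminal breast cancer line, was used for every library. It is labelled as positive for the estrogen receptor and negative for HER2, and was grown in medium with serum and all growth factors. They received the solvent DMSO, 500 nM GDC0068 or 100 nM INY-05-040 for 5 h. GDC0068 inhibits the catalytic activity of the AKT kinases, and INY-05-040, labelled Degrader, brings about degradation of the AKT proteins. The doses had been chosen by the authors for comparable suppression of downstream signaling, and each of the 3 arms had 2 libraries, 1 from each of 2 independent experiments. No arm received added estrogen or an antiestrogen, and any estrogen in the serum was not measured. The genes' response to the receptor itself was thus not measured, and a single cell line limits the comparison to that line.

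The estrogen receptor is a transcription factor that binds estrogen and then estrogen response elements in DNA, many of them far from the genes they raise. It acts with pioneer factors such as FOXA1 and GATA3, which open its sites, and with coactivators and corepressors. AKT lies downstream of PI3K, and blocking this pathway is known from other work in estrogen receptor-positive cells to raise receptor-dependent transcription. The members have unlike roles: PGR (the progesterone receptor), RARA (retinoic acid receptor alpha) and MYB are transcription factors, GREB1 is a cofactor of the receptor, RET is a receptor tyrosine kinase, CXCL12 a secreted chemokine, TFF1 a small secreted trefoil peptide, RAB31 a small GTPase of vesicle traffic, CA12 a membrane carbonic anhydrase and PDZK1 a scaffold protein.

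Total counts per library lay between 25371819 and 32192576. Levels are given as CPM, counts scaled to a common library size. Checked against its markers, the line was luminal: ESR1, which encodes the receptor, stood at 1201 ± 12 CPM in DMSO (SD, n = 2 here and below), and all 9 luminal markers had a row. They summed to 5271 and 4916 CPM in DMSO replicates 1 and 2, to 4900.4 and 5057 CPM for GDC0068 and to 5126 and 4989 CPM for Degrader. Of 13 markers of basal, mesenchymal, immune and endothelial cells, 11 had no row in the table used here and were not analysed. The other 2, CD68 and FN1, summed to 106 and 102 CPM in DMSO, 80.1 and 87.9 under GDC0068 and 83.1 and 74.97 under Degrader; their part in the results was not tested. In bulk libraries, fewer cells of a type and less RNA per cell cannot be told apart. No spike-in values were used, so every change is relative to the bulk of genes.

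In DMSO the members spanned a wide range of levels. Per kilobase of interval, RARA gave 13.3 and 10.1 CPM per kb in replicates 1 and 2, GREB1 11.7 and 10.9, and CA12 11.4 and 10.2 CPM per kb. These 3 overlapped in their replicates, so their order is not resolved. PGR followed with 8.80 and 9.13 CPM per kb, CXCL12 with 7.59 and 7.54, and PDZK1 with 2.87 and 1.95 CPM per kb. Below them stood MYB with 1.82 and 1.56 CPM per kb, TFF1 with 1.36 and 1.37, RAB31 with 0.400 and 0.371, and RET with 0.369 and 0.302 CPM per kb. From CA12 downwards, no member's replicates overlapped those of the next. The order also depends on interval length, which was 4.254 kb for TFF1 and 154.249 kb for RAB31. Polymerase paused near a start site and polymerase along the gene cannot be told apart in these values. TFF1 rested on 119 to 186 counts per library, at which counting error alone is 7.33% to 9.17%, and RET on 261 to 598 counts. The lowest count of any other member was 1294, for CXCL12.

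The identifiers in the table are ENSG00000082175 for PGR, ENSG00000196208 for GREB1, ENSG00000160182 for TFF1, ENSG00000165731 for RET and ENSG00000107562 for CXCL12. They are ENSG00000168461 for RAB31, ENSG00000118513 for MYB, ENSG00000074410 for CA12, ENSG00000174827 for PDZK1 and ENSG00000131759 for RARA. The intervals are those of the deposited table, whose processing notes name the human build hg38. They span introns, but the region counted within them is not stated in the sources used here. The GREB1 interval (chromosome 2, 11542743 to 11581265, plus strand) covers 24.1% of the length that RefSeq gives the gene. The CXCL12 interval (chromosome 10, 44377133 to 44385097, minus strand) covers 53.3%. The other 8 covered at least 78.6% of theirs. PGR (chromosome 11, 101039116 to 101129070, minus strand) overlaps PGR-AS1 on the opposite strand, which had up to 1685 counts, and RARA overlaps AC080112.5 on the opposite strand, with up to 729. PDZK1 has a pseudogene copy, PDZK1P1, on the same chromosome, so its counts are uncertain where reads fit both. GREB1 holds RNU2-13P, with up to 106 counts, on its own strand. Use of strand in counting is not stated in the sources used here, so reads of these partners cannot be told apart from the members' own.

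Upstream sequence is shown for the 5 members that changed under Degrader, since they moved in both directions although all 10 are receptor targets. Each line holds the 250 bases before the RefSeq start site (GRCh38.p14) that lies nearest to the interval's start, 5′ to 3′. Capitals mark the estrogen response half-site GGTCA, the forkhead motif TGTTTAC and the GC box GGGCGG, searched on both strands; the half-site is also part of the full element. The first 3 genes rose and the last 2 fell.
PGR: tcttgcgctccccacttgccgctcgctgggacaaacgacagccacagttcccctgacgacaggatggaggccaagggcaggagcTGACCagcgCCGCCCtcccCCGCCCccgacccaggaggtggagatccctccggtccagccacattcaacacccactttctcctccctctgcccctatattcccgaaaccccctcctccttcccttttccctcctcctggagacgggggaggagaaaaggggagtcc
MYB: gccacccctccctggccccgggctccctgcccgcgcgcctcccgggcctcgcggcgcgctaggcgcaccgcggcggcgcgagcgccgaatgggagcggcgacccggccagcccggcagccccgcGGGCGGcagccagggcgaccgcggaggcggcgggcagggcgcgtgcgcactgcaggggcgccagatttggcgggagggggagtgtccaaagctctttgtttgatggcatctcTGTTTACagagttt
RAB31: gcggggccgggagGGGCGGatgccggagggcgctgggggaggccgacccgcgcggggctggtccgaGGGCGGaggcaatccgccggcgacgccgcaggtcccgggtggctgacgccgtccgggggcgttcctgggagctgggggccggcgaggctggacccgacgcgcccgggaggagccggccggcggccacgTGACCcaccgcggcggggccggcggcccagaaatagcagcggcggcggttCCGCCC
RET: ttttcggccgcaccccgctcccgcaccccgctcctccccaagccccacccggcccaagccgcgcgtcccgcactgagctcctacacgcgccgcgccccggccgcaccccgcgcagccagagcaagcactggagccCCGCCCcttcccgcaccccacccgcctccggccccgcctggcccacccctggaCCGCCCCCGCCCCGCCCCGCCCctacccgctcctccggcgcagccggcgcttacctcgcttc
CXCL12: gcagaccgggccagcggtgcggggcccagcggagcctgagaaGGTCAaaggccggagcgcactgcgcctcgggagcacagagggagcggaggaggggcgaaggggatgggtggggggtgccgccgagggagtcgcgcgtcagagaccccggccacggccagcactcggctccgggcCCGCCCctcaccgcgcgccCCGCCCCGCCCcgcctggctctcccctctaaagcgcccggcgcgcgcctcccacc

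These windows are chr11:101129078-101129327 on the minus strand for PGR, chr6:135181058-135181307 on the plus strand for MYB, chr18:9708051-9708300 on the plus strand for RAB31, chr10:43076819-43077068 on the plus strand for RET and chr10:44385098-44385347 on the minus strand for CXCL12. For PGR, start sites lay 7 bases to either side of the interval's start, and the upstream one was used. The MYB interval begins 88 bases downstream of its RefSeq start site. RefSeq windows were found for 8 of the 10 members. The full palindromic element, GGTCA and TGACC 3 bases apart, was in none of the 8 windows, and in 0.0399% of the 35116 promoter windows in the RefSeq table. A half-site was in 5 of 8, those of PGR, CXCL12, RAB31, CA12 and PDZK1, against 32.7% of all windows. It thus occurred among the genes that rose, those that fell and those that were not called. The forkhead motif was found in MYB alone, 14 bases before the start site, against 2.98% of all windows. Its letters do not tell a site of FOXA1 from a site of other forkhead factors. GC boxes were in 6 of 8, against 42.6% of all windows. RET, where some of them overlapped, and RARA, which was not called, had 5 each. A match here is a match of letters and not a measured binding site, and elements outside these windows were not searched.

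The first comparison set Degrader against DMSO, to ask how transcription of the receptor's targets stood after 5 h with the AKT degrader. These libraries do not measure AKT protein. The members split: MYB rose by 32.7%, PGR by 26.2% and RAB31 by 19.8%, while RET fell by 43.2% and CXCL12 fell by 20.0%. GREB1, TFF1, RARA, PDZK1 and CA12 were not called. A gene was called at an edgeR adjusted p under 0.05 over all genes tested. The 5 called of 10 stand beside 15.3% of all genes called in this comparison, with 3 higher beside 7.39% and 2 lower beside 7.88%. The members and the lists used below were chosen with earlier results of these data known. Shares of all genes, here and below, thus serve as a description and not as a test, and they are not matched for counts. The median log2 fold change of the members was -0.08, and of all genes 0.00; the median size of change, whatever its direction, was 0.29 for the members and 0.13 for all genes.

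**Figure D1:**
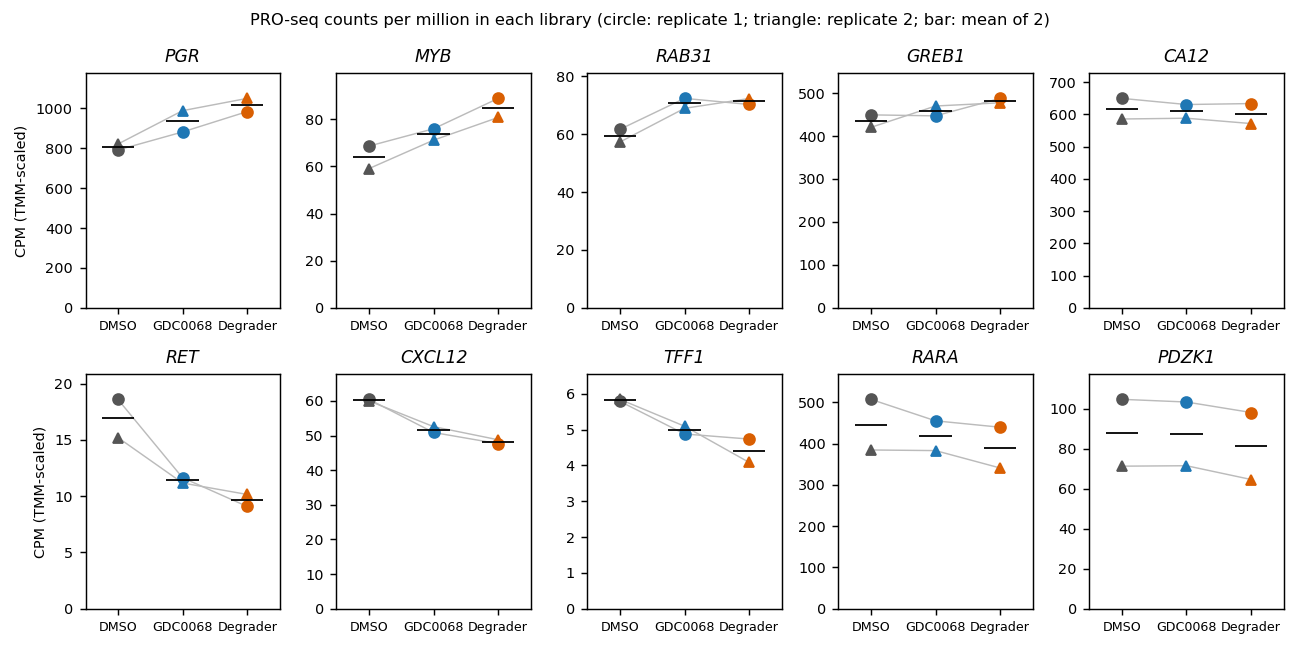
Level (CPM, linear axis from 0) of the 10 members in each of the 6 libraries; circles are replicate 1, triangles replicate 2, bars the mean of 2, and grey lines join libraries of the same replicate number. PGR and MYB stand higher and RET and CXCL12 lower in both drug arms than in DMSO, while RARA and PDZK1 differ more between replicates than between arms.

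Among the transcription factors, PGR is the classical readout of receptor activity. Replicates 1 and 2 gave 791 and 821 CPM with DMSO, 882 and 989 CPM with GDC0068 and 984 and 1050.4 CPM with Degrader. Both Degrader libraries lay above both DMSO libraries, with a difference of 0.34 on the log2 scale (SE 0.069, edgeR adjusted p = 0.00801). Within the replicates it was 0.31 and 0.36. The call was lost without DMSO replicate 1, at 0.31 (edgeR adjusted p = 0.0971), and without Degrader replicate 2, at 0.28 (edgeR adjusted p = 0.119).

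MYB, a proto-oncogene whose transcription is held at a pause site in the first intron unless the receptor releases it, rose most among the members. Its interval (chromosome 6, 135181396 to 135219173, plus strand) gave 68.6 and 59.0 CPM in DMSO, 75.95 and 71.1 CPM under GDC0068 and 88.85 and 80.8 CPM under Degrader. The arms did not overlap in any comparison, and Degrader stood highest. These counts do not tell polymerase at the pause site from polymerase beyond it. Against DMSO, MYB under Degrader stood 0.41 higher in log2 (SE 0.075, edgeR adjusted p = 0.00458), with 0.37 and 0.45 within the replicates. MYB was called in all 16 alternative settings.

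RARA (chromosome 17, 40318245 to 40356331, plus strand) behaved otherwise. Its CPM were 507 and 385 in DMSO, 455 and 383 under GDC0068 and 439.8 and 341 under Degrader. Replicate 1 lay above replicate 2 by 1.32, 1.19 and 1.29 times in the 3 arms, so the arms overlapped, and the change under Degrader of -0.19 (95% interval -0.48 to 0.10) was not called (edgeR adjusted p = 0.372). Within the replicates the differences were -0.21 and -0.17. With the replicate number as a block in the fit, which compares libraries of the same experiment, RARA was called with -0.19 (edgeR adjusted p = 2.90e-04).

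RET (chromosome 10, 43077069 to 43127504, plus strand), a receptor kinase that signals with the receptor in luminal cells, showed the largest change of any member. It gave 18.6 and 15.2 CPM in DMSO, 11.6 and 11.2 CPM under GDC0068 and 9.09 and 10.2 CPM under Degrader, so each DMSO library lay above all 4 drug libraries. For Degrader the log2 change was -0.82 (SE 0.12, edgeR adjusted p = 0.00133), but the within-replicate values of -1.03 and -0.58 were far apart. Replicate 1 was the higher by 1.22 times in DMSO, whereas replicate 2 was the higher under Degrader. It was called in all 16 alternatives, with values from -0.95 to -0.66.

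The secreted members moved down or not past the threshold. CXCL12, the ligand of the chemokine receptor CXCR4, gave 60.5 and 60.0 CPM in DMSO, 50.9 and 52.6 CPM under GDC0068 and 47.7 and 48.8 CPM under Degrader. Its replicates differed by at most 0.05 on the log2 scale and the 3 arms did not overlap. Under Degrader it changed by -0.32 (SE 0.054, edgeR adjusted p = 0.00296), called in all 16 alternatives. TFF1 (chromosome 21, 42362282 to 42366535, minus strand), the textbook estrogen-induced gene of breast cancer cells, gave 5.79 and 5.84 CPM in DMSO, 4.88 and 5.09 CPM under GDC0068 and 4.74 and 4.08 CPM under Degrader. All 4 drug libraries were below both DMSO libraries, yet the change under Degrader of -0.40 (95% interval -0.72 to -0.08) was not called (edgeR adjusted p = 0.0862). The replicate block brought TFF1 past the threshold (edgeR adjusted p = 0.0366).

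Of the remaining 4 members, RAB31 (chromosome 18, 9708303 to 9862551, plus strand) was called. It gave 61.7 and 57.3 CPM in DMSO, 72.4 and 68.9 CPM under GDC0068 and 70.3 and 72.3 CPM under Degrader. Both drug arms lay above DMSO and overlapped each other. For Degrader the log2 change was 0.26 (SE 0.057, edgeR adjusted p = 0.0112), but the call was lost without DMSO replicate 2, at 0.21 (edgeR adjusted p = 0.0847), and without Degrader replicate 2, at 0.23 (edgeR adjusted p = 0.108).

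GREB1, which binds the receptor and is among its most strongly induced genes, gave 449 and 420.0 CPM in DMSO, 447 and 469.9 CPM under GDC0068 and 488 and 477 CPM under Degrader. The Degrader libraries lay above the DMSO ones by a small margin, with a log2 fold change of 0.15 (95% interval 0.03 to 0.28, edgeR adjusted p = 0.100). The replicate block called it at the same size (edgeR adjusted p = 0.00340). PDZK1 (chromosome 1, 145670985 to 145707501, minus strand) gave 105 and 71.2 CPM in DMSO, 103 and 71.45 CPM under GDC0068 and 98.0 and 64.6 CPM under Degrader. Replicate 1 was higher than replicate 2 by 1.47, 1.45 and 1.52 times, far beyond any difference between arms. Its change under Degrader was -0.12 (95% interval -0.57 to 0.33, edgeR adjusted p = 0.755), and with the block -0.12 (edgeR adjusted p = 0.0299).

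CA12 (chromosome 15, 63324688 to 63381846, minus strand), which hydrates carbon dioxide at the cell surface, gave 649 and 585 CPM in DMSO, 630.4 and 588 CPM under GDC0068 and 633 and 571 CPM under Degrader. Libraries of the same number lay close together and the arms overlapped. Its change was -0.04 under Degrader (95% interval -0.19 to 0.12, edgeR adjusted p = 0.785), and it was the only member not called in any comparison with or without the block.

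With the replicate block, 9 of the 10 members were called under Degrader, 4 higher (PGR, MYB, RAB31 and GREB1) beside 15.1% of all genes, and 5 lower (RET, CXCL12, TFF1, RARA and PDZK1) beside 15.7%. For both directions the share of all genes was 30.7%. Without a model, the Degrader and DMSO libraries did not overlap for 7 of 10 members, beside 58.6% of all genes. The count of 5 called became 3 when Degrader replicate 2 was left out, where the count over all genes fell from 3039 to 931.

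**Figure D2:**
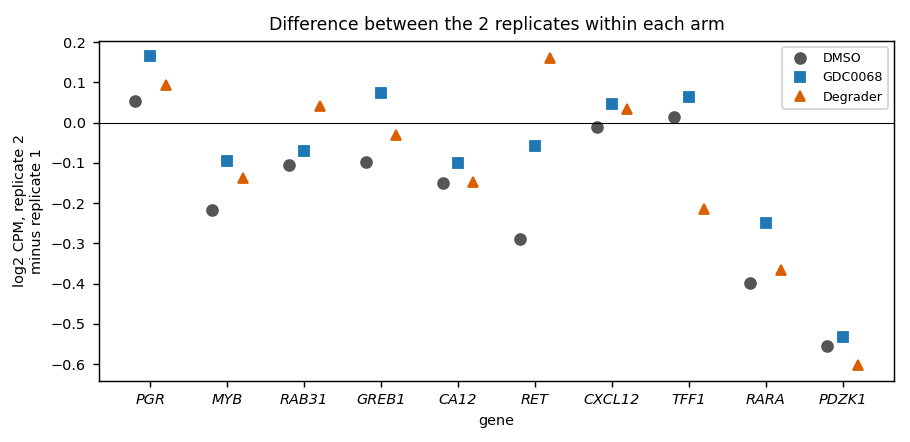
Difference in log2 CPM between replicates 2 and 1 (vertical axis) for each member in each arm. PDZK1 sits between -0.60 and -0.53 and RARA between -0.40 and -0.25 in all 3 arms, whereas RET, TFF1, GREB1, CXCL12 and RAB31 differ in sign between arms.

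How catalytic inhibition of AKT compared was asked by setting GDC0068 against DMSO. RET fell by 32.8%, CXCL12 fell by 14.1% and RAB31 rose by 18.7%. These 3 of 10 members were called, beside 3.58% of all genes (1 higher beside 1.7%, 2 lower beside 1.88%). PGR and MYB had positive values that were not called. The median log2 fold change of the members was -0.02 against 0.01 for all genes, and the median size of change 0.21 against 0.11.

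RET changed by -0.57 in log2 (SE 0.12, edgeR adjusted p = 0.0267), with -0.68 and -0.45 within the replicates. Its call was lost without DMSO replicate 1, at -0.42 (edgeR adjusted p = 0.200), and without GDC0068 replicate 1 or 2, at -0.60 (edgeR adjusted p = 0.0732) and -0.55 (edgeR adjusted p = 0.115). CXCL12 changed by -0.22 (SE 0.054, edgeR adjusted p = 0.0487) and RAB31 by 0.25 (SE 0.058, edgeR adjusted p = 0.0403). Both stood just inside the threshold and were lost whichever library was left out, while their values stayed between -0.25 and -0.20 for CXCL12 and between 0.20 and 0.30 for RAB31. With any 1 library left out, 0 or 1 of the members was called.

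The GDC0068 value of PGR was 0.21 (95% interval 0.06 to 0.36, edgeR adjusted p = 0.110) and that of MYB 0.20 (95% interval 0.04 to 0.37, edgeR adjusted p = 0.160). The replicate block called both, with edgeR adjusted p of 1.82e-04 and 0.00154. It called 5 of 10 members, 3 higher beside 8.87% of all genes and 2 lower beside 8.91%; for both directions the share was 17.8%. For the other 5 members the values were -0.22 for TFF1, 0.08 for GREB1, -0.09 for RARA, -0.02 for CA12 and -0.02 for PDZK1, none called in either fit. The GDC0068 and DMSO libraries did not overlap for 6 of 10 members, beside 50.1% of all genes.

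**Figure D3:**
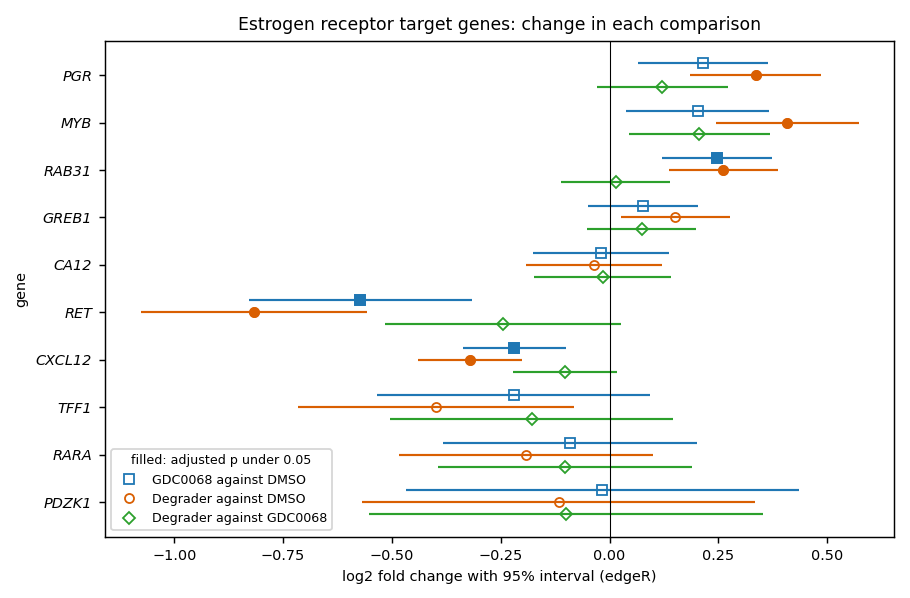
Log2 fold change of each member with its 95% interval (horizontal axis, edgeR) in the 3 comparisons; filled symbols have an adjusted p under 0.05. RET has the lowest value against DMSO for both drugs, at -0.82 and -0.57, and no symbol of the direct comparison is filled.

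The direct contrast of Degrader with GDC0068 tested whether the drugs differed in these genes. None of the 10 members was called by edgeR, where 0.266% of all genes were (0.116% higher, 0.151% lower); 1 member, MYB, had an unadjusted p under 0.05. MYB was higher under Degrader by 0.21 (95% interval 0.04 to 0.37, edgeR adjusted p = 0.250), and PGR by 0.12 (95% interval -0.03 to 0.27, edgeR adjusted p = 0.451). For RET the difference was -0.24 (95% interval -0.52 to 0.03, edgeR adjusted p = 0.401). RAB31 differed least, by 0.01 (95% interval -0.11 to 0.14, edgeR adjusted p = 0.939). The intervals of the other 6 all held 0, and the widest was that of PDZK1, from -0.55 to 0.35. With the replicate block, MYB (edgeR adjusted p = 0.00272) and PGR (edgeR adjusted p = 0.0334) were called higher under Degrader, 2 of 10 beside 5.03% of all genes, and none lower beside 5.35%; for both directions the share was 10.4%. Libraries of the drug arms did not overlap for 5 of 10 members, beside 45% of all genes. By DESeq2 and by limma voom, 0 members were called.

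The comparisons with DMSO both used the same control libraries, so like signs there are not separate evidence. For the members, the Degrader and GDC0068 values were 0.34 and 0.21 for PGR, 0.41 and 0.20 for MYB, 0.26 and 0.25 for RAB31, -0.82 and -0.57 for RET, and -0.32 and -0.22 for CXCL12.

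The receptor and its partners were examined through a list of 20 genes, of which 17 had a row and were tested. Under Degrader 3 were called, 2 higher and 1 lower, 17.6% of the list beside 15.3% of all genes. TLE3, a corepressor, went from 217 ± 3.2 CPM in DMSO to 183 ± 10 CPM with GDC0068 and 177 ± 0.075 CPM with Degrader. It fell, with -0.29 under Degrader (edgeR adjusted p = 0.00394) and -0.24 under GDC0068 (edgeR adjusted p = 0.0339). NRIP1, a corepressor that is itself an estrogen-raised gene, rose by 0.24 under Degrader (edgeR adjusted p = 0.0103). Its value under GDC0068 was 0.13 (edgeR adjusted p = 0.189, and 0.0123 with the replicate block). Under GDC0068 2 were called, 1 higher and 1 lower (TLE3), 11.8% of the list beside 3.58% of all genes; without any 1 library, 0 or 1 gene was called there.

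ESR1 itself (chromosome 6, 151807653 to 152103274, plus strand) stood at 1192 and 1209 CPM in DMSO, 1014 and 1142 CPM under GDC0068 and 1062 and 1129 CPM under Degrader. All 4 drug libraries were below both DMSO libraries, but neither -0.13 under Degrader (edgeR adjusted p = 0.230) nor -0.16 under GDC0068 (edgeR adjusted p = 0.238) was called. The replicate block called both (edgeR adjusted p of 0.00921 and 0.00470). FOXA1 had 0.16 under Degrader (edgeR adjusted p = 0.0599, and 0.00124 with the block) and 0.09 under GDC0068 (edgeR adjusted p = 0.368). GATA3 had 0.07 (edgeR adjusted p = 0.492) and -0.04 (edgeR adjusted p = 0.809). With the block, 10 of 17 were called under Degrader, 6 higher beside 15.1% of all genes and 4 lower beside 15.7%. Under GDC0068 the block called 5 of 17, beside 17.8% of all genes.

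A wider list held 44 other estrogen-raised genes, 43 of them tested. Under Degrader 8 were called (18.6% of the list beside 15.3% of all genes), 5 higher beside 7.39% of all genes and 3 lower beside 7.88%, and the median log2 fold change was 0.07. BCL2, an inhibitor of apoptosis, rose from 42.3 ± 2.3 CPM to 67.1 ± 0.70 CPM under Degrader, by 0.66 (edgeR adjusted p = 1.43e-04), and to 56.0 ± 3.3 CPM under GDC0068, by 0.40 (edgeR adjusted p = 0.00955). FOS, an immediate-early transcription factor, rose by 0.60 (edgeR adjusted p = 0.00292) and by 0.55 (edgeR adjusted p = 0.0176). SGK3, a kinase related to AKT, rose by 0.31 under Degrader (edgeR adjusted p = 0.00440), as did the histone demethylase gene KDM4B by 0.26 (edgeR adjusted p = 0.0146) and TIPARP by 0.23 (edgeR adjusted p = 0.0486). The 3 that fell were KCNK5, a potassium channel gene, by 0.63 in log2 (edgeR adjusted p = 0.00805), OLFM1 by 0.44 (edgeR adjusted p = 0.00933) and CELSR2 by 0.28 (edgeR adjusted p = 0.0288). Under GDC0068 the values were 0.14 for SGK3, 0.17 for KDM4B, 0.11 for TIPARP, -0.33 for KCNK5, -0.26 for OLFM1 and -0.07 for CELSR2. None of these was called there without the replicate block. The block called SGK3, KDM4B, KCNK5 and OLFM1 (edgeR adjusted p of 0.0165, 0.00290, 1.23e-05 and 1.83e-05), but not TIPARP or CELSR2. BCL2 and FOS were the 2 called under GDC0068 (0 without either DMSO library and 1 without either GDC0068 library), 4.65% of the list beside 3.58% of all genes.

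With the replicate block, 30 of the 43 were called under Degrader (18 higher, 12 lower) beside 30.7% of all genes, and 17 under GDC0068 (13 higher, 4 lower) beside 17.8%. Between the drugs, 0 genes of either list were called by edgeR or limma voom, with 2 of the receptor list and 6 of the wider list at an unadjusted p under 0.05. DESeq2 called 1 gene of the receptor list and the block 2, and in the wider list DESeq2 called 0 and the block 10. The block called 10.4% of all genes in that comparison. Without Degrader replicate 2 the count of the wider list under Degrader was 3, and without DMSO replicate 1 it was 4; the count over all genes fell too, from 3039 to 931 and 934. Of the markers of other cell types, CD68, a lysosomal protein gene used to mark macrophages, fell in the same arms. Its log2 change was -0.43 with Degrader (edgeR adjusted p = 0.00361) and -0.30 with GDC0068 (edgeR adjusted p = 0.0487); its part in these results was not tested.

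**Figure D4:**
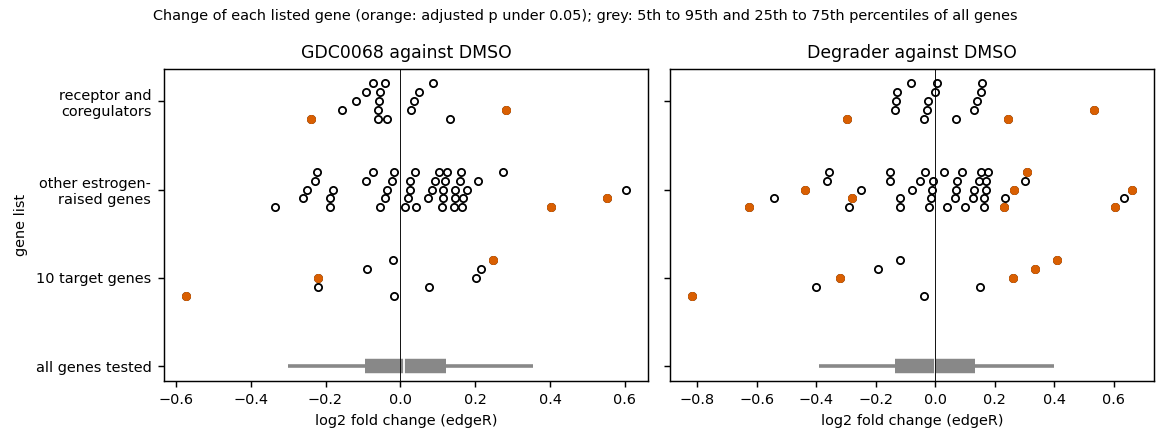
Log2 fold change (horizontal axis) of each gene of the 3 lists against DMSO, for GDC0068 on the left and Degrader on the right; orange points have an edgeR adjusted p under 0.05, and grey bars give the middle of all genes tested. In each list points lie on both sides of 0, and RET, at -0.82 under Degrader, is the lowest point of all 3 lists.

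The genes whose response was most like that of 2 members were found over the 4 within-replicate log2 differences from DMSO (2 drugs in 2 replicates), among 13896 genes whose mean reached 10 CPM. Nearest to RET were PSAT1, CPNE7 and EEF1A2, at root mean square differences of 0.08, 0.13 and 0.13 on the log2 scale. Nearest to RAB31 were NMRK1, ADIRF-AS1 and UBL7, at 0.01, 0.02 and 0.02. With 4 values per gene and a shared DMSO library in each replicate, such nearness is a description only.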

How the data were processed

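PRO-seq counts of 6 T47D libraries (DMSO, GDC0068 and Degrader, replicates 1 and 2) were taken from 1 table. The deposited values are raw counts per gene interval, as the whole numbers and unequal totals show. Per the submitters' processing notes, cutadapt 1.14, Bowtie 1.2.2, SAMtools 1.3.1, HISAT2 2.2.1 and limma were used, with the builds hg38 and GRCh38 and the Drosophila build dm3; their roles, strand use, duplicate removal and any spike-in scaling are not given in the sources used here. Kept duplicates would make counting error look too small, and scaling without a spike-in removes a change common to all genes.

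For the tests, edgeR 4.0.16 under R 4.3.3 took these steps: filterByExpr (minimum count 10, minimum total 15), TMM scaling, and a quasi-likelihood fit over the 6 libraries, in which the 3 arms pool their spread (3 residual degrees of freedom). Adjusted p-values are Benjamini-Hochberg values over 19902 intervals, called under 0.05. Intervals of log2 fold changes are 95% intervals. CPM are TMM-scaled. The 16 alternatives included the replicate block, DESeq2 1.42.0 and limma 3.58.1 (voom). With 2 libraries per arm no permutation test between arms can pass 0.05.

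The labels number the replicates, and the design text speaks of 2 independent experiments; differences between replicates correlated across genes at 0.25 to 0.29 between arms, so the numbers pair the libraries. The calls and counts given first are from the fit without this pairing. For members in all comparisons, and other named genes against DMSO, the value from the replicate block stands beside a call that it changed. Other calls of the block are given as counts. The labels do not say more about how separate the cultures were, and p-values measure the spread between these libraries. Named were all members, ESR1, FOXA1 and GATA3, up to 3 called genes per direction, list and contrast with the smallest adjusted p, and the genes nearest in pattern; KDM4B, TIPARP and CD68 were added after their values were seen, and 1 gene that the rule names is not reported here. Members and lists were chosen with earlier results of these data known. Promoter sequences are from RefSeq (GRCh38.p14), matched by symbol for 8 of 10 members; TFF1 and GREB1 were not matched.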

Additional observations from a re-analysis of the deposited data

How the results depend on the processing

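Over the 16 alternatives, 425 member values kept their direction and their side of the threshold, 25 lost a call, 8 gained one and 19 changed sign; the 19 were uncalled values when 1 library was left out. The replicate block raised the counts of calls under Degrader to 6114 genes, 9 members, 10 receptor-list genes and 30 of the wider list. Under GDC0068 it gave 3540, 5, 5 and 17, and between the drugs 2065, 2, 2 and 10. It took no call from any member. Under GDC0068, DESeq2 called 1 member (RET), and a fit of the 4 libraries compared called 1 member (RET) and 0 receptor-list genes. Between the drugs, DESeq2 called 136 genes and 1 of the receptor list, robust estimation 116 genes, and the 4 libraries compared 23. Under Degrader, limma voom called 6 and the filter at 10 CPM called 5 of the receptor list. CXCL12 under GDC0068 was lost with upper quartile scaling (adjusted p = 0.0603) and limma voom (adjusted p = 0.0556) too. The cause was not tested in any of these. With 1 library left out in turn, the lone library being assumed to vary like the others, the counts under Degrader ran from 931 to 3217 genes, 3 to 5 members and 3 to 10 of the wider list. Under GDC0068 they ran from 37 to 546 genes, 0 to 1 members, 0 to 1 of the receptor list and 0 to 2 of the wider list, and between the drugs from 5 to 63 genes. In log2, CA12 ran from -0.11 to 0.038, PDZK1 from -0.45 to 0.19 and RARA from -0.39 to 0.018 under Degrader. Under GDC0068 they ran from -0.093 to 0.053, -0.30 to 0.29 and -0.28 to 0.12. Between the drugs they ran from -0.087 to 0.054, -0.43 to 0.19 and -0.29 to 0.067, and RAB31 from -0.014 to 0.051. TFF1 has no value under the 10 CPM filter, and at 119 to 186 counts its error is the widest from counting.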
